A study of Rattus norvegicus with 8 samples.

Results

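Transcripts of 31 genes that mark T lymphocytes and natural killer (NK) cells were followed in the small intestine of young rats with cystic fibrosis (CF) and of wild-type (WT) rats. The genes were taken by exact symbol from a fixed list, and each of the 31 was found among the 52753 loci of the table. CF is an inherited disease of the epithelial anion channel CFTR. The series holds 4 CF and 4 WT libraries of stranded mRNA from the whole length of the small intestine of Sprague Dawley rats at postnatal day 21, flushed with buffered saline and dithiothreitol before extraction. The labels give no CF allele, sex, litter or diet, nor whether the libraries stem from separate animals, so every p-value measures only how these libraries vary.

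T cells recognise antigen through a receptor that signals through the CD3 and zeta chains, the coreceptors CD4 and CD8, and the kinases LCK and ZAP70. In the small intestine many T cells sit between the epithelial cells, where they are held by the integrin CD103, encoded by Itgae, and drawn by the chemokine receptor CCR9. Cytotoxic T cells and NK cells kill through perforin and granzymes. In a bulk sample such as this, fewer cells of a type and less RNA per cell cannot be told apart. At postnatal day 21 rats are near weaning.

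Libraries held 15255364 to 20890031 assigned fragments and are named by group and by a number from 0 to 3 that has no order and no known link to the sample titles. Levels are given as CPM (fragments of a locus relative to all fragments of the library, after TMM scaling between libraries) and, where genes are compared with each other, as the authors' FPKM, which also divides by transcript length. Fold changes set CF over WT, are on a log2 scale, and come with a standard error (SE) or 95% interval from edgeR's quasi-likelihood test. Cftr was at 92.0 to 107 CPM in CF and 74.0 to 107 CPM in WT (log2 fold change 0.04, SE 0.12). The labels do not name the CF allele, so this level does not check the group labels.

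None of the T and NK genes differed between CF and WT past the test. Of the 31, 27 passed the low-count filter and were tested, and 0 of these 27 had an adjusted p under 0.05 by edgeR's quasi-likelihood test (Benjamini-Hochberg adjustment over all 16941 tested loci). Of all tested loci, 0.165% passed, 0.136% as higher and 0.0295% as lower in CF. The count was also 0 at an unadjusted p under 0.05, a level that 15.1% of all tested loci passed, and DESeq2 called 0 of the 27 for which it gave an adjusted p, against 566 of 18265 loci (3.1%) over the whole table. In 0 of the 27 were the CF and WT libraries fully apart, as they were in 8.78% of all tested loci. Means were higher in CF for 12 genes and lower for 15. The median log2 fold change was −0.02, against −0.005 over all tested loci. Single values ran from −0.39 for Tbx21 to 0.82 for Cd27.

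The precision set how small a difference could have been seen. The 95% interval reached from 0.34 to 1.13 log2 units to either side of the value, depending on the gene. For 16 of the 27 genes the interval lay wholly within a 2-fold change in either direction, and for 3 it lay within 1.5-fold. A missing call therefore does not show that a gene was at the same level in CF and WT, and for the other 11 genes a 2-fold difference in at least 1 direction lay inside the interval.

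**Figure D1:**
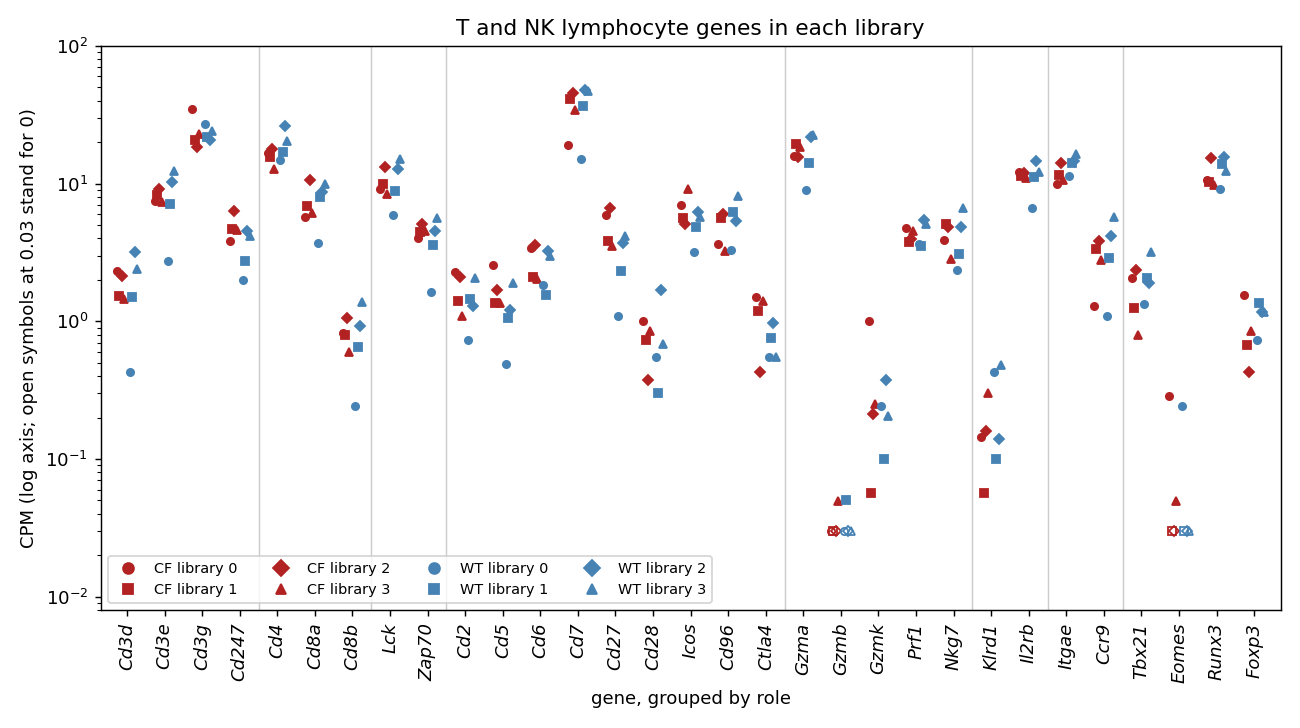
Level of each of the 31 genes in each library, in CPM on a log axis, with genes grouped by role from the T cell receptor complex at the left to transcription factors at the right. Red symbols are CF and blue symbols WT, with 1 symbol shape per library number, and open symbols stand for 0. The 2 colours overlap in every gene, and the blue circle of WT library 0 is the lowest symbol in many of them.

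**Figure D2:**
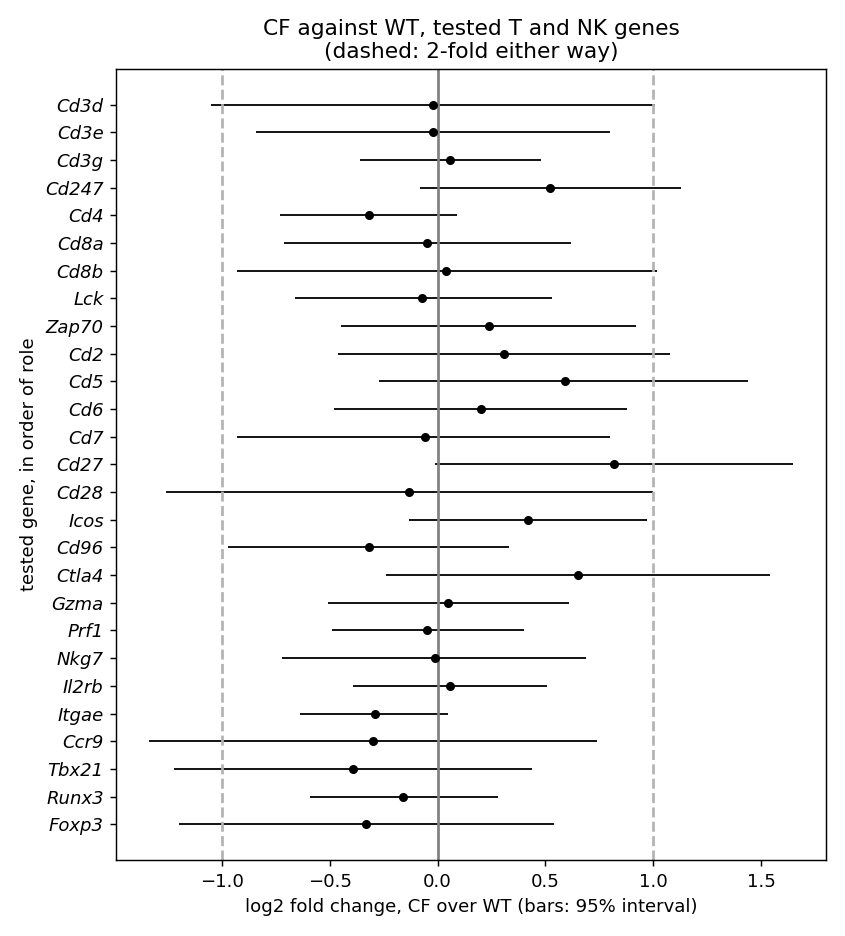
Log2 fold change of CF over WT for the 27 tested genes, with points for the value, bars for the 95% interval and dashed lines at a 2-fold change. Every interval includes 0, and the one of Cd27, from −0.01 to 1.65, comes closest to leaving it on the higher side.

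No subunit of the T cell receptor complex passed the test between groups. Cd3e, which encodes the epsilon chain, was at 7.43, 8.29, 9.10 and 7.33 CPM in CF libraries 0 to 3 and at 2.74, 7.12, 10.3 and 12.4 CPM in WT libraries 0 to 3. The CF values lay inside the WT range, whose lowest value, in WT library 0, was far below the others (log2 fold change −0.02, 95% interval −0.84 to 0.80). Cd3d, which encodes the delta chain, showed the same low library, at 0.426 CPM in WT library 0 against 1.51 to 3.17 CPM in the other WT libraries and 1.45 to 2.31 CPM in CF. Cd247, which encodes the zeta chain that carries the signal into the cell, was at 3.81, 4.68, 6.33 and 4.64 CPM in CF and at 2.01, 2.76, 4.56 and 4.16 CPM in WT. Its groups overlapped and its log2 fold change of 0.52 (SE 0.28, adjusted p = 0.399) did not pass the edgeR test.

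Cd3g, which encodes the gamma chain, did not follow its partners. It was at 35.1, 20.9, 18.6 and 23.1 CPM in CF and at 27.2, 21.8, 20.7 and 24.0 CPM in WT, so that WT library 0, the lowest for Cd3d and Cd3e, was the highest of the WT libraries for Cd3g (log2 fold change 0.06, 95% interval −0.36 to 0.48). On the per-length FPKM scale the Cd3g level was 16.0 times that of Cd3e in WT library 0 and 7.70 times in CF library 0, but 2.21 to 4.20 times in the other 6 libraries. The Cd3d level stayed at 0.284 to 0.353 times that of Cd3e in 7 libraries, with CF library 0 at 0.567. Cd3g (chromosome 8, 49274552 to 49280982, Rnor_6.0) lies beside Cd3d (49282459 to 49287110) and Cd3e (49297607 to 49308809), and no other locus of the table overlaps any of the 3. The 3 chains are known to be built into the same receptor in fixed proportion. Why the Cd3g locus stood at a mean of 29.4 FPKM, against 7.27 for Cd3e, was not tested.

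The coreceptor genes were likewise within the spread of the libraries. Cd8a was at 5.69, 6.83, 10.7 and 6.13 CPM in CF and at 3.71, 7.93, 8.66 and 9.97 CPM in WT, with a log2 fold change of −0.05 (95% interval −0.71 to 0.62). CF library 2 was the highest and WT library 0 the lowest of all 8. Cd8b, which pairs with Cd8a on conventional cytotoxic T cells, was low throughout, at 0.598 to 1.06 CPM in CF and 0.243 to 1.37 CPM in WT. Per length its level was 0.056 to 0.131 times that of Cd8a over the 8 libraries. Intraepithelial T cells are known to carry CD8 alpha homodimers besides the alpha-beta form.

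Cd4 was at 16.7, 15.6, 17.9 and 12.8 CPM in CF and at 14.9, 16.9, 26.4 and 20.4 CPM in WT. WT libraries 2 and 3 were above all CF libraries while WT libraries 0 and 1 were not (log2 fold change −0.32, 95% interval −0.73 to 0.09, adjusted p = 0.443 by edgeR). In rats, CD4 is carried by macrophages as well as by helper T cells. WT library 0, low for Cd3d and Cd3e, was within the CF range for Cd4, and the Cd8a level per length there was 0.194 times that of Cd4, against 0.276 to 0.891 in the other 7 libraries. A further locus at the same span also bears the symbol Cd4, with 1893 fragments in all against 2663. It was named after its values were seen. Its log2 fold change was −0.37 (unadjusted p = 0.0441, adjusted p = 0.317 by edgeR), so its call did not differ. The strand of either locus was not looked at, so which one holds the Cd4 messenger RNA is not known. The Cd4 levels and the Cd8a ratio above rest on the locus with more fragments.

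The kinases that start receptor signalling showed the same picture as Cd3e. Lck was at 9.11, 9.99, 13.3 and 8.38 CPM in CF and at 5.96, 8.88, 12.8 and 15.2 CPM in WT. Zap70 was at 4.05, 4.46, 5.11 and 4.49 CPM in CF and at 1.64, 3.56, 4.52 and 5.67 CPM in WT. In both genes WT library 0 was the lowest of the 8 and WT library 3 the highest, and the CF values fell between them. Their log2 fold changes were −0.07 (SE 0.27) and 0.24 (SE 0.31).

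Among the 9 adhesion and costimulation genes, 6 were higher on average in CF, with a median log2 fold change of 0.31 over the 9. Cd27, a TNF receptor family member that supports survival of T cells and is also found on B cells, was at 5.88, 3.84, 6.60 and 3.54 CPM in CF and at 1.10, 2.31, 3.68 and 4.16 CPM in WT. The groups overlapped, since CF libraries 1 and 3 lay below WT library 3. Its log2 fold change of 0.82 had the smallest p of all 27 genes (SE 0.37, unadjusted p = 0.0521, adjusted p = 0.333 by edgeR) and was 0.56 without WT library 0. For Cd5, a brake on receptor signalling, the log2 fold change was 0.59 (SE 0.39). It was 0.65 (SE 0.40) for the inhibitory receptor gene Ctla4 and 0.42 (SE 0.25) for the costimulatory receptor gene Icos. None of these passed the test.

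Cd7, a surface protein of T and NK cells, had the highest mean level per length of all 31 genes, at 31.6 FPKM. It was at 19.1, 41.4, 45.5 and 34.0 CPM in CF and at 15.1, 36.7, 47.6 and 46.8 CPM in WT. In each group the library numbered 0 was well below the other 3. Cd96, an adhesion receptor of T and NK cells, was at 3.66, 5.59, 6.01 and 3.24 CPM in CF and 3.29, 6.27, 5.35 and 8.19 CPM in WT. The remaining 3 of the 9, Cd2, Cd6 and Cd28, had mean levels of 0.772 to 2.59 CPM over the 8 libraries and log2 fold changes from −0.13 to 0.31. The lowest, that of Cd28, was 0.56 without WT library 2.

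Of the 5 genes of the killing machinery, Gzma and Nkg7 had the highest mean FPKM, 18.2 and 6.15. Gzma, which encodes the trypsin-like protease granzyme A, was at 15.9, 19.5, 15.7 and 18.6 CPM in CF and at 9.01, 14.2, 21.7 and 22.4 CPM in WT. The CF libraries lay within the WT range (log2 fold change 0.05, 95% interval −0.51 to 0.61). Nkg7, a granule membrane protein gene, was at 3.91, 5.08, 4.84 and 2.84 CPM in CF and at 2.37, 3.06, 4.80 and 6.62 CPM in WT (log2 fold change −0.01, SE 0.32). Prf1, which encodes the pore former perforin, was steadier, at 3.78 to 4.77 CPM in CF and 3.51 to 5.45 CPM in WT (log2 fold change −0.05, 95% interval −0.49 to 0.40).

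Gzmb, which encodes granzyme B, and Gzmk, which encodes granzyme K, did not pass the filter. Gzmb had 2 fragments in all, 1 in CF library 3 and 1 in WT library 1. Its span in the table is 144626 bases long and overlaps 3 other loci, and granzyme genes have close relatives, so how fragments were assigned there is uncertain. Gzmk had 21 fragments in CF library 0 and 1 to 8 in each of the other 7 libraries.

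The promoters of these 5 killing genes are shown because all 5 hold the core motif of the RUNX factors, to which Runx3, one of the 31 genes, belongs. The sequences are from RefSeq, build GRCr8, which is not the build of the expression table. Each is the 250 bases before the gene's start, read 5′ to 3′ toward the gene, with the RUNX core TGTGGT, or its reverse complement ACCACA, in capitals. They lie at chr2:46485697-46485946 (minus strand) for Gzma, chr15:34462470-34462719 (minus strand) for Gzmb, chr2:46582016-46582265 (minus strand) for Gzmk, chr20:29788790-29789039 (plus strand) for Prf1 and chr1:102981247-102981496 (plus strand) for Nkg7.
Gzma: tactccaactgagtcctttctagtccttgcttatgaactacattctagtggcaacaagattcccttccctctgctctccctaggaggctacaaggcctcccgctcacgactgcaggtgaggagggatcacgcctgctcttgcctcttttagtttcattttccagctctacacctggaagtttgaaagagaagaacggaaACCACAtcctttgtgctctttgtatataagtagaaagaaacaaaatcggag
Gzmb: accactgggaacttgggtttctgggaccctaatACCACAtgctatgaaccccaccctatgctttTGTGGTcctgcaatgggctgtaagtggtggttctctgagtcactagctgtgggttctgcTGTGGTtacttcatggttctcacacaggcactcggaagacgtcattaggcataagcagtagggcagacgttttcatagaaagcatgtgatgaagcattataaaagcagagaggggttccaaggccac
Gzmk: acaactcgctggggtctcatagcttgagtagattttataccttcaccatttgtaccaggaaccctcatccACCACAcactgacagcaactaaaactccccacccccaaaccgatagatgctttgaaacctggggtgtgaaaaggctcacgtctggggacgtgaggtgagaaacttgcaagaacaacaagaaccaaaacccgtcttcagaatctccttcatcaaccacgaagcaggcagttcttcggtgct
Prf1: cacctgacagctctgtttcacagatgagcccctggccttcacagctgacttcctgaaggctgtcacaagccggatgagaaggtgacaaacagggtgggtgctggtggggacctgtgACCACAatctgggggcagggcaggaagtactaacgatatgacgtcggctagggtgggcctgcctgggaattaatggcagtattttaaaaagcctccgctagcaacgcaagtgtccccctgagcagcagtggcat
Nkg7: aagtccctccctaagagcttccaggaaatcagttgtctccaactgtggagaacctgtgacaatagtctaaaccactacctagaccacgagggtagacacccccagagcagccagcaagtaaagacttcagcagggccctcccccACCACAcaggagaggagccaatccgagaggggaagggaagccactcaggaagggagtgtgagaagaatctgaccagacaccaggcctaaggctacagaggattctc

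Gzmb holds 3 copies of the RUNX core and each of the other 4 promoters 1. The match nearest to a start begins 51 bases before that of Gzma. RefSeq promoters were present for 24 of the 31 genes (26 promoters), and 12 of the 26 (46.2%) held the RUNX core on either strand, against 14.5% of all 33469 promoters of the same length. The 12 were those of Cd2, Cd28, Cd96, Eomes, Gzma, Gzmb, Gzmk, Itgae, Lck, Nkg7, Prf1 and Runx3. The T-box core GGTGTG, or CACACC on the other strand, to which Tbx21 and Eomes proteins bind, was in 4 of the 26 (15.4%) against 15.4% of all promoters. It can overlap the RUNX core by up to 4 bases. The motifs were chosen with the gene list known, and a match is a description of letters, not a bound site. Binding was not measured here. Since no tested gene of the list was called between CF and WT, calls cannot set genes with the RUNX core apart from genes without it.

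Genes of NK cells and of cytokine response split into 1 clearly measured gene and others near the limit of counting. Il2rb, the receptor chain through which T and NK cells take up the signal of IL-2 and IL-15, was at 12.2, 11.3, 12.0 and 10.9 CPM in CF and at 6.70, 11.2, 14.5 and 12.1 CPM in WT. Its values outside WT library 0 were close together (log2 fold change 0.06, 95% interval −0.39 to 0.51). Klrd1, which encodes the NK receptor subunit CD94, had only 1 to 7 fragments per library, 32 in all. Eomes, a transcription factor gene of NK and memory T cells, had 6 fragments in CF library 0, 1 in CF library 3 and 4 in WT library 0, and none elsewhere. With Klrd1 this low, the tested NK genes of the list are ones that T cells share.

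The genes that place lymphocytes in the gut both had lower means in CF, without a call. Itgae was at 9.93, 11.5, 14.0 and 10.7 CPM in CF and at 11.3, 14.1, 14.7 and 16.5 CPM in WT. CF libraries 1 and 2 lay above WT library 0, and CF library 2 was close to WT library 1, so the groups overlapped (log2 fold change −0.29, 95% interval −0.64 to 0.05, adjusted p = 0.405 by edgeR). Its span in the table is 182501 bases long and overlaps 6 other loci. CD103 is also carried by dendritic cells of the gut, whose 7 marker genes summed to 28.7 to 44.9 CPM in CF and 42.4 to 45.4 CPM in WT, and their part in the Itgae level was not tested. Ccr9, the receptor for the gut chemokine CCL25, was at 1.30, 3.33, 3.83 and 2.79 CPM in CF and at 1.10, 2.86, 4.19 and 5.73 CPM in WT. As for Cd7, the libraries numbered 0 were the lowest of each group. For the ligand gene Ccl25 the log2 fold change was −0.02 (SE 0.13), and for Cdh1, which encodes the E-cadherin that CD103 binds, it was 0.20 (SE 0.14).

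The 3 tested transcription factor genes had lower means in CF, with log2 fold changes of −0.16 for Runx3, −0.33 for Foxp3 and −0.39 for Tbx21. Runx3, which directs the CD8 lineage, was at 10.6, 10.2, 15.3 and 9.72 CPM in CF and at 9.19, 13.9, 15.5 and 12.4 CPM in WT. CF library 2 stood apart from the other CF libraries and beside WT library 2. The Runx3 span overlaps 7 other loci of the table. Tbx21, which encodes T-bet of the interferon-gamma program, was at 2.07, 1.24, 2.34 and 0.798 CPM in CF and at 1.34, 2.06, 1.91 and 3.21 CPM in WT. Foxp3, the factor of regulatory T cells, had a mean of 0.873 ± 0.479 CPM in CF and 1.10 ± 0.264 CPM in WT (SD, n = 4 each), and its interval, −1.20 to 0.54, allowed a 2-fold lower level.

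The WT libraries spread widely around the CF libraries. WT library 0 was the lowest of the 8 libraries in 17 of the 27 tested genes, while it was the lowest in 15.7% of all tested loci. The summed level of the 31 genes was 195, 203, 228 and 188 CPM in CF libraries 0 to 3 and 132, 193, 248 and 254 CPM in WT libraries 0 to 3. The mean sums were 204 ± 17.7 CPM in CF and 207 ± 56.9 CPM in WT (SD, n = 4 each). So the WT libraries lay both below and above the CF range. WT libraries 0 and 3 had the fewest fragments, 15255364 and 15321809, and had the lowest and the highest sum. WT library 0 was singled out on these same values, so leaving it out raises most WT means and lowers most fold changes by construction. Leaving out a different library could also move the median up, as given at the end. Without WT library 0, 19 of the 27 genes had lower means in CF and 8 higher, with a median log2 fold change of −0.25 against 0.00 over all tested loci, and 0 were called. Itgae and Cd4 then had log2 fold changes of −0.38 (unadjusted p = 0.0293, adjusted p = 0.348) and −0.43 (unadjusted p = 0.0358, adjusted p = 0.372) by edgeR.

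**Figure D3:**
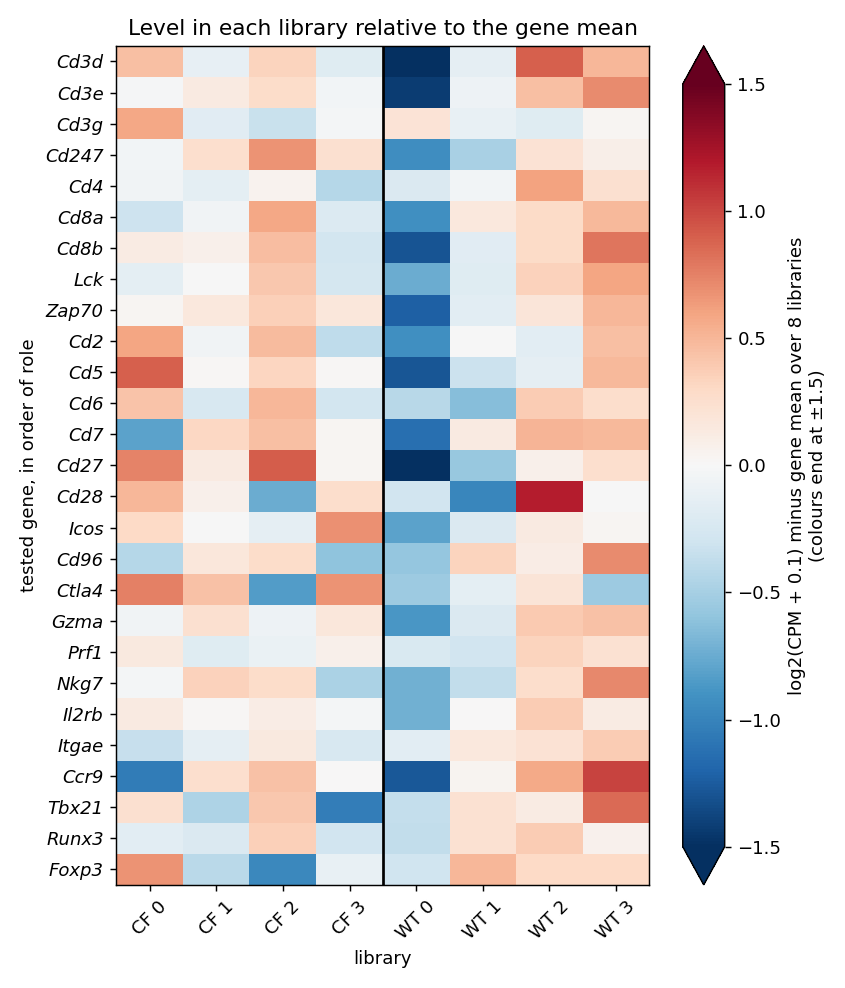
Level of each of the 27 tested genes in each library relative to the mean of that gene over the 8 libraries, as log2(CPM + 0.1), with red above and blue below the mean. The column of WT library 0 is blue for all genes but Cd3g, and CF library 0 is blue for Cd7 and Ccr9 but red for Cd5, Cd27, Ctla4 and Foxp3.

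Summed markers of some other leukocytes were also lowest in WT library 0, and those of others were not. The 10 pan-leukocyte genes, such as Ptprc for CD45, summed to 296 CPM in WT library 0, against 392 to 444 CPM in the other WT libraries and 326 to 433 CPM in CF, and 6 of the 10 were lowest there. The 10 B cell genes summed to 15.9 CPM there, against 23.2 to 34.4 CPM in the other WT libraries and 21.6 to 38.5 CPM in CF, and WT library 0 was the lowest library in 7 of the 9 that were tested. The 11 macrophage genes summed to 312 CPM in WT library 0 and 399 to 497 CPM in the other WT libraries, against 322 to 393 CPM in CF, but only 4 of the 11 were lowest there. Dendritic cell genes, at 42.4 CPM in WT library 0, were close to the other WT libraries (44.1 to 45.4 CPM), with 1 of 7 lowest there, and mast cell genes, at 48.2 CPM, were above CF library 3 (40.8 CPM). No marker of these 5 leukocyte lists was at 0 in all libraries, and the part of leukocyte content in the levels of T cell genes was not tested. The 4 red cell genes summed to 90.3 to 124 CPM in CF, 151 CPM in WT library 0 and 248 to 351 CPM in the other WT libraries. In all 4 the groups were fully apart (8.78% of all tested loci). Of these, Hba-a2 was called lower in CF (log2 fold change −1.07, adjusted p = 0.0339 by edgeR). The part of blood content in the levels of T cell genes was not tested.

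CF library 0 stood apart in another way. The 8 epithelial genes summed to 8070 CPM there, against 13000 to 16500 CPM in the other CF libraries and 9440 to 13600 CPM in WT. Of these genes 4 of 8 (Fabp2, Krt8, Krt19 and Vil1) were lowest in CF library 0, and Epcam, Cdh1, Krt18 and Krt20 were lowest in a WT library. In the same library Cd7 and Ccr9 were the lowest of the CF libraries, and per length the Cd7 level was 2.82 times that of Cd3e, against 3.79 to 5.92 in the other 7. The part of these epithelial genes in the Cd7 and Ccr9 levels was not tested.

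**Figure D4:**
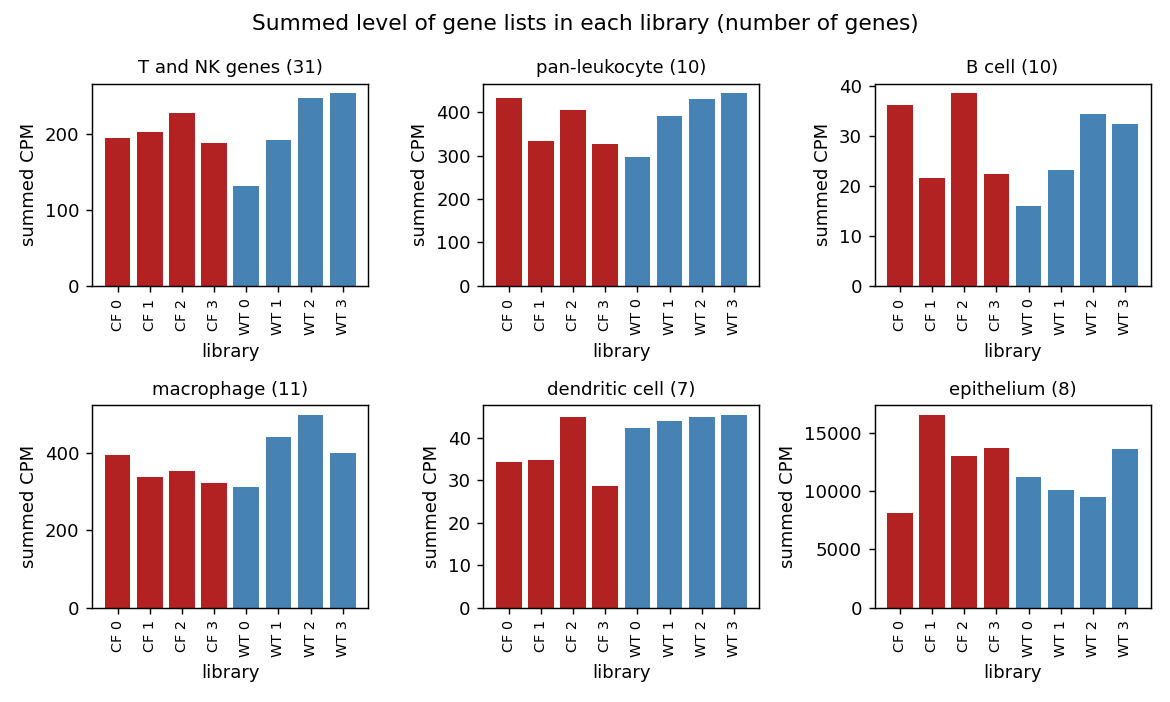
Summed CPM of the 31 T and NK genes and of marker lists of other cells in each library, with red bars for CF and blue bars for WT and every axis starting at 0. WT library 0 has the lowest sum for the T and NK, pan-leukocyte, B cell and macrophage genes, and CF library 0 has the lowest epithelial sum, 8070 CPM.

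Fragments of Ifng, Il17a and Il22, cytokine genes that T cells and other lymphocytes switch on after activation, lay mainly in CF libraries 0 and 3. The cytokine genes of this paragraph were picked on their values. Ifng, which encodes interferon gamma, had 27 fragments in CF library 0, 4 in CF library 3 and 0 in the other 6 libraries. Il17a had 11 and 13 fragments in these CF libraries and 0 elsewhere. Il22, a cytokine that acts on epithelium, had 18 and 3 there and 1 in WT library 3. Il17f had 37 fragments in CF library 0, 7 in WT library 2 and 0 or 1 in each of the others. CF libraries 1 and 2 had 1 fragment between them over these 4 genes, none of which passed the low-count filter. Csf2, which encodes GM-CSF and had more fragments, showed no such pattern, with 14, 24, 23 and 10 in CF and 9, 12, 26 and 16 in WT. Tnf, Ltb, Il7r, Pdcd1, Il4, Il13, Cd70 and Gzmc are listed at 0 in all 8 libraries, some of them genes that most T cells use, so such a 0 is not read as absence.

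The wider set of lymphocyte genes gave no call either. Of 116 listed genes in 7 groups, 90 were tested and 0 passed an adjusted p of 0.05 by edgeR, with 5 higher and 6 lower at an unadjusted p under 0.05 (15.1% of all tested loci) and a median log2 fold change of −0.04. Among the 20 tested signalling genes, 5 had higher and 15 lower means in CF, and Fyn, an LCK-related kinase gene, had the smallest p (log2 fold change −0.33, SE 0.15). Among 14 lymphocyte transcription factor genes the libraries of the groups were fully apart in 2 (8.78% of all tested loci). Id2, needed for innate lymphoid and NK cells but also expressed in other tissues, was at 20.3, 22.1, 21.8 and 22.2 CPM in CF and 30.1, 26.4, 26.5 and 24.3 CPM in WT (log2 fold change −0.31, SE 0.10, adjusted p = 0.207 by edgeR). Tox, a regulator of T cell development, was at 34.9, 27.0, 27.7 and 35.0 CPM in CF and 25.4, 25.7, 24.4 and 19.6 CPM in WT (log2 fold change 0.39, SE 0.13, adjusted p = 0.226). The 6 smooth muscle genes, like Tox, were highest in CF library 3 and lowest in WT library 3 as a sum, at 7910 to 10600 CPM in CF and 4780 to 6890 CPM in WT, with a median log2 fold change of 0.59 and none called. Their part in the Tox level was not tested. For Ets1 the log2 fold change was −0.32 (SE 0.14).

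Of the 10 other NK receptor and granule genes tested, Ncr1 and Cd244 had the smallest p. Ncr1, which encodes the NK receptor NKp46, was at 0.579, 0.169, 0.319 and 0.349 CPM in CF and 1.10, 0.853, 0.559 and 0.819 CPM in WT. Only CF library 0 and WT library 2 crossed, at 87 fragments in all (log2 fold change −1.19, 95% interval −2.08 to −0.30, adjusted p = 0.223 by edgeR). Cd244, which encodes the receptor 2B4 of NK and other leukocytes, differed by −0.58 on the log2 scale (SE 0.21, adjusted p = 0.244). Neither passed the test.

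The 7 tested checkpoint and TNF receptor family genes had no common direction. After rounding, 3 of them had log2 fold changes above 0 and 3 below, a value at 0 counting in neither, and the median was 0.0. Those named here, with the cytokine receptor gene Il2ra, had the smallest p of their lists, and none passed the test. Tnfrsf4, which encodes OX40, was at 2.65, 2.37, 2.45 and 2.09 CPM in CF and 1.58, 1.0, 1.96 and 1.30 CPM in WT, with the groups fully apart (log2 fold change 0.71, SE 0.25, adjusted p = 0.237 by edgeR). For Tnfrsf9, which encodes 4-1BB, the log2 fold change was 1.29 (SE 0.49), and for Il2ra, the high-affinity IL-2 receptor chain, it was 0.72 (SE 0.32). Both were highest in CF library 0 and lowest in WT library 0. For the inhibitory receptor gene Havcr2 it was −0.75 (SE 0.32), with 3 of 4 CF libraries below every WT library. Of the 15 tested chemokine receptor and integrin genes none had an unadjusted p under 0.05. Of this list the lymphocyte chemokine gene Ccl5 differed by −0.25 (SE 0.24) and S1pr1, whose receptor lets lymphocytes leave tissue, by −0.15 (SE 0.24) on the log2 scale. Among the 15 tested ligands from other cells, Il18, an epithelial cytokine that acts on T and NK cells, was at 57.9, 45.6, 34.6 and 72.6 CPM in CF and 20.5, 36.6, 38.0 and 35.2 CPM in WT (log2 fold change 0.69, SE 0.25, adjusted p = 0.255).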

How the data were processed

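Stranded mRNA of rat small intestine was sequenced in 4 CF and 4 WT samples. Per the submitters' processing notes, the tools were STAR 2.3.1z, Cuffdiff, StringTie, cutadapt and bcl2fastq, with build Rnor_6.0; in which order and how they were set is not given in the sources used here. Expected counts were taken as deposited from the authors' Cuffdiff table (raw fragments, unscaled, per the file headers); 5.99% were fractional and all were rounded. The FPKM values were made by the authors with Cuffdiff's own scaling, per the file headers, so CPM and FPKM can order libraries differently. Another 2 columns that hold values by library stayed unused. Spans are printed as the table gives them.

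A gene was the locus whose only symbol is the listed one; of 2 such loci (Cd4, Cd247) the one with more fragments was used. Loci passed edgeR's filterByExpr (minimum count 10, minimum total 15), were scaled by TMM and tested by robust quasi-likelihood over 16941 loci. Standard errors were derived from each F value and its fold change. Library numbers in the table do not map to sample titles, so the tie between them is a placeholder that no result uses. Members and lists were chosen with earlier results of these data known. Members given in full were those past the test or at an unadjusted p under 0.05 and the 2 with the highest mean FPKM of each role; of each other list, up to 3 genes with the smallest unadjusted p under 0.05 or, with none, the 2 with the highest FPKM were named; others were named for the role or after their values were seen. The test was tried on simulated counts. Summed levels and ratios have no test. Alternatives changed scaling, filter, test, unit, rounding, threshold, locus choice and libraries. Tests ran in edgeR 4.0.16, DESeq2 1.42.0 and limma 3.58.1 (R 4.3.3), and figures in matplotlib 3.10.9 (Python 3.11.15, pandas 2.3.3).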

Additional observations from a re-analysis of the deposited data

Results flagged for a closer look

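Among 152 groups of 4 libraries looked at (the T and NK genes, the other named lymphocyte genes and the summed lists), 10 held a library far from the other 3. Chance alone flags about 1 in 20 groups, and the tally cannot be read against that rate, since Ifng, Il17f and Il22 were picked on their values and the sums share genes with single groups. Runx3 was at 15.3 CPM in CF library 2 and at 9.72 to 10.6 CPM in the other CF libraries. The summed level of the T cell receptor complex genes was 48.6 CPM in CF library 0 against 35.4 to 36.6 CPM in the other CF libraries, and Cd3g alone was at 35.1 CPM there. Ifng, at 1.30 CPM in CF library 0 against 0 to 0.199 CPM in the others, and Il17f, at 1.78 CPM against 0 to 0.0532 CPM, were high in that library. Il18 was at 20.5 CPM in WT library 0 and 35.2 to 38.0 CPM in the other WT libraries. Of genes near the limit of counting, Gzmb was at 0.0499 CPM in CF library 3 and 0.0502 CPM in WT library 1, Eomes at 0.243 CPM in WT library 0 and Il22 at 0.0683 CPM in WT library 3, with 0 in the other libraries of the same group. The summed smooth muscle genes were at 4780 CPM in WT library 3 and 6600 to 6890 CPM in the other WT libraries.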

How the results depend on the processing

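The count of called T and NK genes was 0 in all 19 alternatives, and the smallest adjusted p of any of the genes was 0.211, for Ctla4 without CF library 2. The sign of a fold change differed from the reported one in 56 of 512 alternative values, in 14 genes with log2 fold changes of at most 0.30 in size, none of them called. The median log2 fold change of the genes moved between −0.246 and 0.112 with 1 library left out. For Cd27 the log2 fold change was then 0.56 to 1.06. The count over all loci was 28 and moved more: 553 with no low-count filter, 566 with DESeq2, 17 with limma-voom, 191 at an adjusted p of 0.1, and 5 to 136 with 1 library left out (136 and 77 on leaving out CF library 0 or 2, 5 for WT library 1 or 2, and 6 for WT library 3). With the library number as a replicate block it was 11 and the count of T and NK genes 0. Libraries with the same number correlated at −0.11 to 0.16 in their deviations from the group means. Of the 4 CF libraries, 2 correlated best with the WT library of their own number. No label links libraries of the same number, and these few correlations cannot show whether they share a litter or batch. No listed gene needed a locus with several symbols, so that alternative left all values as they were. Using the other locus of Cd4 and Cd247, chosen after seeing the data, left the count at 0. Gzmb, Gzmk, Klrd1 and Eomes had too few fragments to be tested, so no difference was detectable in them. The interval was widest for Cd28, and the widest after it were those of Ccr9 and Cd3d.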
